A study of Mus musculus with 6 samples.

Results

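The genes of the insulin-like growth factor (IGF) system were followed in primary hippocampal cultures of wild type (WT) mice and of mice labelled *Fmr1* knockout (KO). Its members were fixed by gene symbol, with earlier results of these data known. These were the ligands Igf1 and Igf2, the receptors Igf1r and Igf2r, and the binding proteins Igfbp2, Igfbp3, Igfbp4, Igfbp5, Igfbp6 and Igfbp7. They are 10 of the 47086 loci in the deposited table, and each was found there. Total RNA was taken at day 14 in vitro from 3 WT and 3 *Fmr1* KO cultures, all given as C57BL/6 hippocampal neurons and none treated. The methods give pups of postnatal day 0 as the source of the cultures. Loss of FMRP, the product of *Fmr1* and a binder of mRNA, causes fragile X syndrome. The methods describe male KO mice and WT littermates for the study in general. The knockout allele, the sex of the cultured pups and the litter behind each library were not stated, so p-values measure the spread between these libraries, which may be technical in part. Levels are in FPKM, a fragment count corrected for transcript length and library size, so genes can be compared with each other.

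IGF1 and IGF2 are secreted peptides that signal through the receptor tyrosine kinase IGF1R to the PI3K-Akt and Ras-MAPK cascades. IGF2R, the cation-independent mannose 6-phosphate receptor, has no kinase and carries IGF2 to the lysosome. The binding proteins hold most of the extracellular IGF and can store it, shield it from the receptor or bring it to the cell surface, and proteases release it again. IGFBP7 binds IGFs weakly and is known as a protein of the vessel wall and of the matrix. In the brain, Igf1 is made by neurons and glia, Igf2 mostly by the choroid plexus and the meninges, and Igfbp2 by astrocytes and the choroid plexus among others.

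The *Fmr1* transcript was measured at 18.99, 19.5 and 19.7 FPKM in WT, and the libraries labelled *Fmr1* KO were at 23.1, 21.8 and 18.5. It was thus not lower under the KO label, and every direction given here rests on that label (log2 change 0.12, adjusted p = 0.536 from limma). The transcript level does not measure the FMRP protein. In hippocampus of mice, the paper reports FMRP by Western blot in WT but not in KO samples, with genotypes checked by PCR. No such check was given for these libraries. The cultures held neurons and glia, since the neuron list (Rbfox3, Map2, Tubb3, Snap25, Syt1) summed to 963 to 1056 FPKM and the astrocyte list to 1735 to 2042 FPKM over the 6 libraries. The Y-linked transcript Eif2s3y was at 9.26 to 9.68 FPKM in WT and at 19.6 to 22.4 under the KO label, and Xist was at 59.9 to 77.9 and at 53.0 to 61.3. The part of pup sex in the results was not tested. Absolute depth is unknown. From the steps between the lowest values, the scaling of the other libraries relative to WT replicate 1 was 1.09 to 1.33.

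In these cultures the IGF transcripts were mostly those of binding proteins. Igfbp2 had the highest level of the family, with a mean FPKM of 85.0 over the 6 libraries, above 94.8% of all tested loci. Igfbp5 followed at 58.7, Igfbp4 at 38.3 and Igfbp3 at 21.8. The receptors were lower, with 11.7 for Igf2r and 7.63 for Igf1r, next to Igfbp7 at 6.18. The ligands were near the bottom, with 1.503 for Igf1 and 0.623 for Igf2, and Igfbp6 was lowest at 0.137. Of neighbours in this order, Igf1r and Igfbp7 overlapped in their ranges over the 6 libraries, and no other neighbouring pair did.

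**Figure D1:**
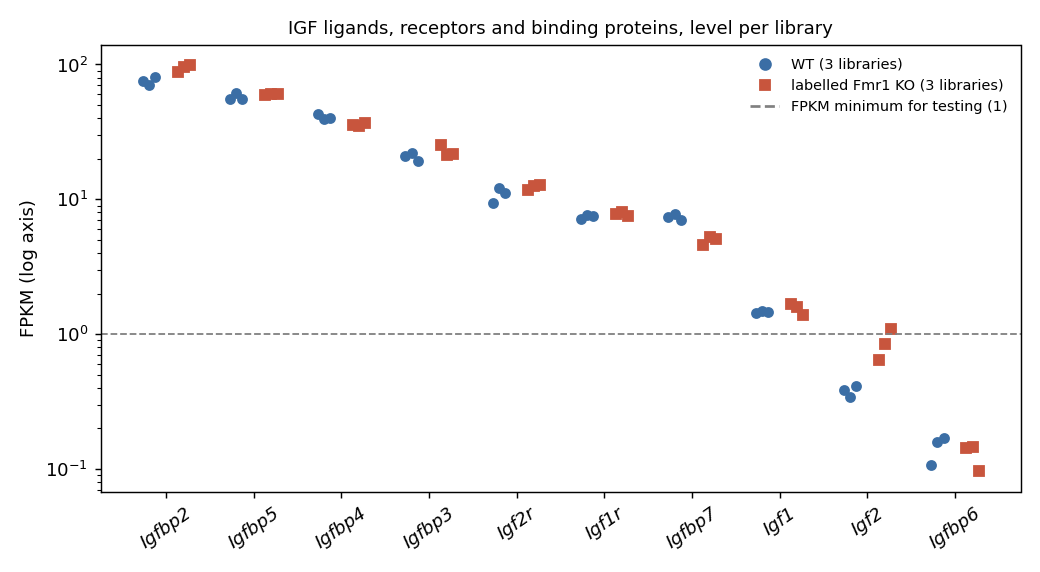
FPKM of the 10 genes on a log axis, ordered by their mean, with 1 point per library (circles for WT, squares for libraries labelled *Fmr1* KO) and a dashed line at the minimum of 1 FPKM for testing. The levels run from Igfbp2, at 70.5 to 99.2, down to Igfbp6, at 0.0959 to 0.170, and the points of Igf2 lie almost all below the line.

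Loci that averaged 1 FPKM or more in WT or under the KO label entered a limma comparison of log2(FPKM + 0.1), and p-values were adjusted by Benjamini-Hochberg over all 13195 of them. Igf2 and Igfbp6 did not reach this minimum, so 8 of the 10 members were tested. At an adjusted p below 0.05, 1 member was called, against 0.265% of all tested loci. At an unadjusted p below 0.05 there were 3, namely Igfbp2, Igfbp4 and Igfbp7, against 14.8% of all tested loci. The same 3 genes had no overlap between WT and KO-labelled values, which was so for 21.1% of all tested loci. The median log2 change was 0.07 over the 8 tested members and 0.0050 over all tested loci.

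The member that passed was Igfbp7 (deposited locus chr5:77310484-77408045, GRCm38), which fell. RefSeq places the gene at chr5:77349240-77408045, so the deposited locus extends beyond it. Polr2b, a subunit gene of RNA polymerase II, is a separate locus in an overlapping interval, and reads of the pair may not be told apart without stated use of strand. In WT Igfbp7 was at 7.35, 7.83 and 7.02 FPKM, and in the libraries labelled *Fmr1* KO at 4.55, 5.23 and 5.12. Every WT value lay above every value under the KO label, and the means of 7.40 ± 0.404 and 4.96 ± 0.364 (SD, n = 3) differed 1.49-fold. The log2 change was -0.57 (standard error 0.08, 95% interval -0.75 to -0.38, adjusted p = 0.0359 from limma). Permuting the 6 values exactly gave p = 0.1, the smallest that 3 libraries against 3 allow. The call was close to the threshold. The limma adjusted p was 0.0786 to 0.127 with each library left out in turn, 0.0602 without the mean-variance trend and 0.133 without an FPKM minimum, while the log2 change stayed between -0.61 and -0.51 as libraries were left out.

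The summed levels of endothelial and of fibroblast and meninges markers were lower in the same libraries as Igfbp7. The endothelial list (Pecam1, Cldn5, Cdh5, Tek, Flt1, Kdr, Emcn, Ly6c1) summed to 3.03 to 3.25 FPKM in WT and to 1.73 to 2.63 under the KO label. Pecam1 was at 1.11, 0.733 and 0.907 in WT and at 0.422, 0.722 and 0.450 under the KO label, and Cldn5 was listed at 0 in all libraries. Pecam1 alone of the list had no overlap between WT and KO-labelled values, against 14.4% of loci above 0 in any library. Of these 8 genes only Kdr was tested (log2 change -0.0032, adjusted p = 0.997 from limma). The fibroblast and meninges list summed to 54.9 to 61.8 FPKM in WT and to 41.2 to 49.8 under the KO label. Most of this sum was Dcn, with means of 42.0 in WT and 34.8 under the KO label. Of its 5 tested genes, Bgn and Serpinf1 were lower at an adjusted p below 0.05, against 0.265% of all tested loci in either direction, and none was higher. Of its untested genes, Col1a2 had every KO-labelled library above every WT library. Col1a1 and Col3a1 had higher means under the KO label with overlapping ranges, and Foxc1 had a lower mean. Without the FPKM minimum Serpinf1 was no longer called (adjusted p = 0.155 from limma). Slc22a6 was listed at 0. The mural list, with 4 of 8 genes tested and none at an unadjusted p below 0.05, summed to 23.4 to 27.6 and to 23.6 to 28.3 FPKM. The part of such cells in the fall of Igfbp7 was not tested, and in bulk RNA fewer cells of a type and less RNA per cell cannot be told apart.

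Igfbp2 (chr1:72824480-72852474) had an FPKM of 75.9, 70.5 and 80.9 in WT and of 88.5, 95.3 and 99.2 under the KO label. The values under the KO label were all above those in WT, with means of 94.3 ± 5.44 and 75.7 ± 5.20 (SD, n = 3), a 1.25-fold difference. The log2 change was 0.32 (standard error 0.06, 95% interval 0.17 to 0.46), and it did not pass over all loci (adjusted p = 0.0884 from limma, and 0.0502 to 0.285 over the alternatives). Igfbp5, the other binding protein on chromosome 1, is an abundant matrix-bound form. It had 55.0, 61.0 and 55.6 in WT and 59.2, 60.8 and 60.3 under the KO label, and these ranges overlapped (log2 change 0.07, 95% interval -0.05 to 0.19). The ratio of Igfbp2 to Igfbp5 was 1.15 to 1.45 in WT and 1.49 to 1.65 under the KO label.

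Igfbp4 (deposited locus chr11:99041260-99052646) is a binding protein known mainly to block IGF action until it is cleaved by the protease PAPP-A. It had an FPKM of 43.1, 39.7 and 39.9 in WT and of 35.8, 34.7 and 36.6 under the KO label. Here the WT values were all above the others, by 1.15-fold in the means (40.9 ± 1.88 and 35.7 ± 0.911, SD, n = 3). The log2 change of -0.20 (standard error 0.05, 95% interval -0.31 to -0.08) did not pass either (adjusted p = 0.157 from limma). Igfbp3, the main carrier of IGFs in blood, had 21.1, 22.0 and 19.3 in WT and 25.2, 21.4 and 21.8 under the KO label, with overlapping ranges and a 95% interval of the log2 change from -0.04 to 0.31. Igfbp6, which prefers IGF2 as its ligand, was between 0.0959 and 0.170 FPKM in all 6 libraries, too low for a statement on its direction.

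**Figure D2:**
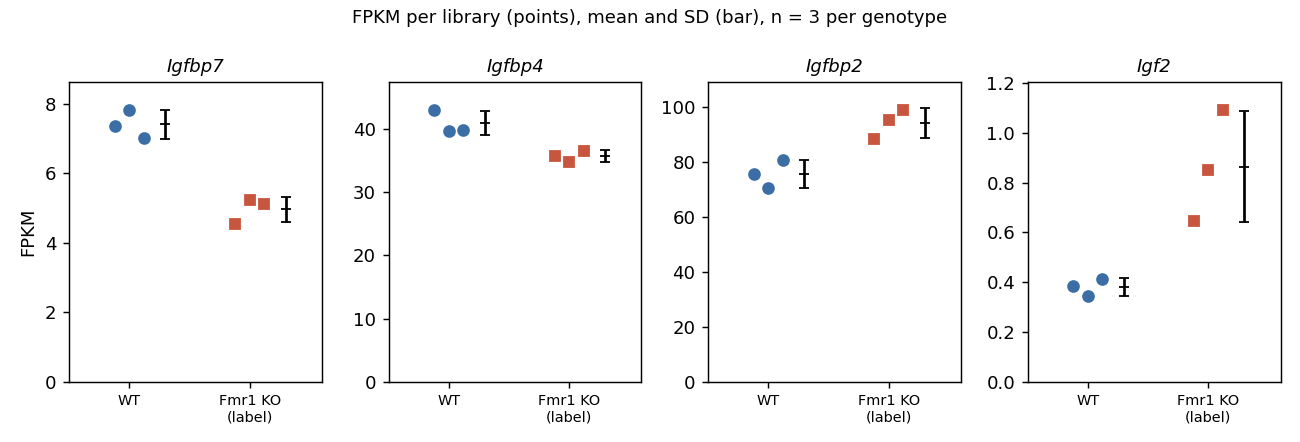
FPKM per library (points), with the mean and SD beside them, for the 4 members whose 3 WT and 3 KO-labelled libraries did not overlap. Igfbp7 and Igfbp4 lie lower under the KO label, and Igfbp2 and Igf2 lie higher; each axis starts at 0. Only Igfbp7 passed an adjusted p below 0.05.

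For the 3 tested members whose libraries did not overlap, the 250 bases before the annotated start are shown (RefSeq, GRCm38.p6, 5′ to 3′ on the strand of the gene). Capitals mark GGGCGG (the GC box) or TATAAA (the TATA box), searched on both strands. Igfbp7 is at chr5:77408046-77408295 on the minus strand, Igfbp2 at chr1:72824230-72824479 on the plus strand (the first of its 2 annotated starts), and Igfbp4 at chr11:99040994-99041243 on the plus strand. RefSeq places the Igfbp4 gene at chr11:99040005-99052655, so its window lies inside the gene, before a start downstream of the gene's first base.
Igfbp7: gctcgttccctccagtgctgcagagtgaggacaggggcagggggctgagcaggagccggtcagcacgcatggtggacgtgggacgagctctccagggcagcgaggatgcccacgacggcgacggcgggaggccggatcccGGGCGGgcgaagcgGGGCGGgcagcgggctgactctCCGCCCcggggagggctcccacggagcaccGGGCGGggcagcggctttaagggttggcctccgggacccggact
Igfbp2: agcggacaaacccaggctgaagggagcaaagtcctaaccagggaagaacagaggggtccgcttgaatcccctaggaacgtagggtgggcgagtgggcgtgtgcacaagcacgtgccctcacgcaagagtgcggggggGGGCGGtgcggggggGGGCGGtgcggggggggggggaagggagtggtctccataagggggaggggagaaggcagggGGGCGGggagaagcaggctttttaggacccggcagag
Igfbp4: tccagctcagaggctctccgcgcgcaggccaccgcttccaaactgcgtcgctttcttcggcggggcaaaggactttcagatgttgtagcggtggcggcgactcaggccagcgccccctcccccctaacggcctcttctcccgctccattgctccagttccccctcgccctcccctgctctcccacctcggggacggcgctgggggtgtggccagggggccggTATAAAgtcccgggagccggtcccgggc

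The window of Igfbp7 holds 4 GC box matches, at 44 to 110 bases before the start, and that of Igfbp2 holds 3, at 37 to 113 bases, with no TATA match in either. The window of Igfbp4 holds a TATA match 28 bases before the start and no GC box match. Over all 32851 windows of this length, 32.7% hold a GC box match and 12.4% a TATA match. Of the 14 windows of the 10 members, 6 hold a GC box match and 2 a TATA match. The GC content was 74.0% for Igfbp7, 67.2% for Igfbp2 and 69.2% for Igfbp4, against a median of 52.4% over all windows. The window of the second Igfbp2 start, chr1:72825137-72825386, holds no match of either motif and has a GC content of 56.4%. Igf2 has 4 annotated starts, with a GC box match in 2 of the windows. Matches are a description of the letters and not of binding.

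Within the 6 binding proteins, the summed FPKM was compared by library. The sum was 201 to 203 FPKM in WT and 213 to 223 under the KO label. The share of Igfbp2 was 37.5% ± 2.42 in WT and 43.2% ± 1.58 under the KO label (SD, n = 3). The share of Igfbp4 was 20.2% ± 0.900 and 16.4% ± 0.405, and that of Igfbp7 was 3.66% ± 0.216 and 2.28% ± 0.136. Igfbp5 held 28.3% ± 1.77 and 27.6% ± 0.474, and Igfbp3 held 10.3% ± 0.709 and 10.48% ± 1.17. These shares are a description and were not tested.

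**Figure D3:**
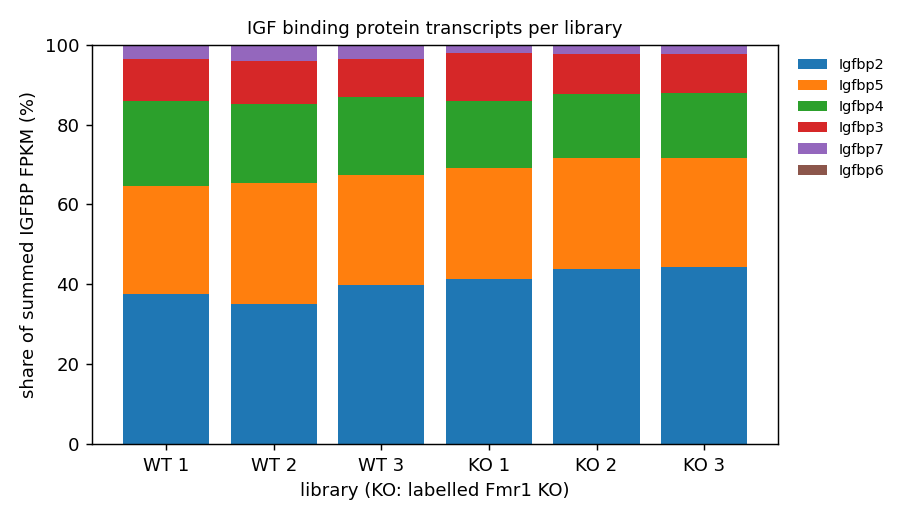
Share of each binding protein in the summed FPKM of the 6 binding proteins, with 1 bar per library. Igfbp2 and Igfbp5 together make up most of every bar, the segment of Igfbp2 is 35.03 to 39.9% in WT and 41.5 to 44.5% under the KO label, and that of Igfbp4 is smaller under the KO label.

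Of the ligands, Igf1 (deposited locus chr10:87826756-87937047) had an FPKM of 1.43, 1.49 and 1.46 in WT and of 1.67, 1.58 and 1.39 under the KO label. The ranges overlapped, and the log2 change was 0.07 with a 95% interval from -0.25 to 0.40 (adjusted p = 0.864 from limma). Microglia are a known source of Igf1 in brain, and their list was lower under the KO label while Igf1 was not detectably so. The sum of the 12 microglia markers was 17.4 to 20.2 FPKM in WT and 8.43 to 11.8 under the KO label. Of its 5 tested genes, C1qa, C1qb, C1qc and Lyz2 reached the FPKM minimum only through WT, where they were higher, so their direction was set in part by that minimum. Lyz2 was called among them (adjusted p = 0.0359 from limma), but not without the minimum (adjusted p = 0.133). Aif1 and Tmem119 were listed at 0 in every library. A listed 0 need not mean absence, since Pik3r2, a widely expressed PI3K subunit, was also listed at 0 throughout.

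Igf2 (deposited locus chr7:142650768-142670356) was the member with the largest ratio between the genotypes, at a very low level. Igf1 and Igf2 each have an annotated antisense gene (Igf1os, Igf2os), and without stated use of strand their reads may not be told apart. The FPKM of Igf2 was 0.387, 0.344 and 0.413 in WT and 0.647, 0.852 and 1.09 under the KO label. All KO-labelled values were above all WT values, as in 7.0% of the 26981 loci above 0 in any library, while 14.4% had no overlap in either direction. The means of 0.381 ± 0.0348 and 0.864 ± 0.224 (SD, n = 3) differed 2.27-fold. Without an FPKM minimum the log2 change was 0.98 (standard error 0.24, 95% interval 0.41 to 1.55). It was below an unadjusted p of 0.05, as were 9.8% of all loci in that fit in either direction, and did not pass adjustment (adjusted p = 0.276 from limma). Leaving out any single library kept the log2 change between 0.81 and 1.15. The ratio of Igf1 to Igf2 was 3.54 to 4.33 in WT and 1.27 to 2.58 under the KO label.

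Choroid plexus markers had higher summed levels in the libraries where Igf2 was higher, and 2 of them, Ttr and Folr1, were tested. Both reached the FPKM minimum only through the KO-labelled group, where they were higher. Ttr passed with and without that minimum (adjusted p below 0.05 in limma), and Folr1 did not. Ttr was listed at 0, 0 and 0.0910 FPKM in WT and at 56.6, 52.0 and 60.7 under the KO label. The other 10 genes of the choroid plexus list (Kl, Folr1, Clic6, Aqp1, Kcnj13, Otx2, Kcne2, Sostdc1, Prlr, Cldn2) summed to 1.704 to 2.58 FPKM in WT and to 3.37 to 4.05 under the KO label. Of all 11 markers, 6 had every KO-labelled library above every WT library, and none the reverse. The former held for 7.0% of the 26981 loci above 0 in any library. Of the 6, all but Ttr were below 1 FPKM in every library. Clic6 was at 0.0625 to 0.0941 in WT and at 0.386 to 0.704 under the KO label, while Kl was listed at 0 throughout. Astrocytes are another named source of Igfbp2, and their list summed to 1735 to 2042 FPKM in WT and to 1794 to 1991 under the KO label. Of its 9 tested genes, 2 were lower and 0 higher at an unadjusted p below 0.05 in limma. Over all tested loci, 14.8% were below that p in either direction. The part of choroid plexus cells in the values of Igf2 and Igfbp2, and of astrocytes in those of Igfbp2, was not tested. Collagen transcripts of the meninges and fibroblast list were low, with Col1a2 at 0.263 to 0.374 in WT and 0.411 to 0.591 under the KO label, and Dcn of the same list at 39.0 to 43.8 and 30.1 to 39.0.

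**Figure D4:**
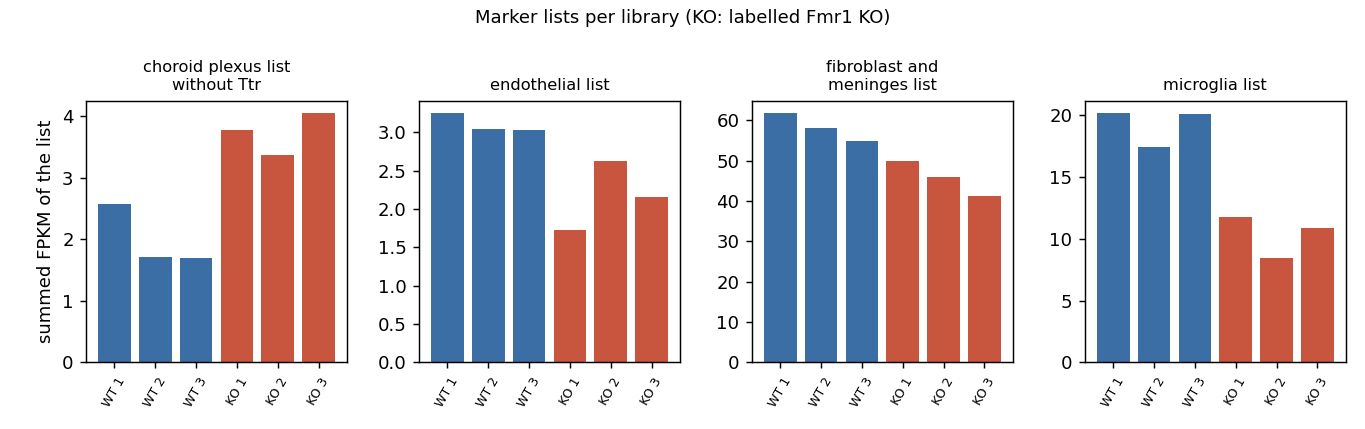
Summed FPKM of 4 marker lists in each library, with bars that start at 0. The choroid plexus list without Ttr is higher under the KO label, at 3.37 to 4.05 against 1.704 to 2.58, and the endothelial, fibroblast and microglia lists are lower.

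Neither receptor differed beyond its spread in the main comparison. Igf1r had an FPKM of 7.13, 7.60 and 7.57 in WT and of 7.81, 8.08 and 7.58 under the KO label, and its log2 change was 0.07 (95% interval -0.07 to 0.22, adjusted p = 0.641 from limma). Igf2r had 9.39, 12.2 and 11.2 in WT and 11.8, 12.6 and 12.8 under the KO label, so the WT range reached into the other. Its log2 change was 0.19 (95% interval -0.02 to 0.40, adjusted p = 0.392 from limma). The change was 0.09 without WT replicate 1 and 0.27 without WT replicate 2. The unadjusted limma p was 0.0179 in the latter fit and 0.0268 with the replicate number as a block, and neither passed adjustment. Igf2r has a second locus in the table, on a scaffold, which was listed at 0. The deposited interval of Igf2r also holds the antisense transcript Airn, at 1.85 to 7.28 FPKM, and whether counting used strand is not given, so reads of the pair may not be told apart. The ratio of Igf2r to Igf1r was 1.32 to 1.602 in WT and 1.51 to 1.69 under the KO label. The insulin receptor gene Insr was at a like level, with 8.35, 9.78 and 9.37 in WT and 9.71, 10.6 and 10.4 under the KO label (adjusted p = 0.369 from limma).

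The rest of the pathway was read from a list of 43 genes, of which 31 were tested. None was called at an adjusted p below 0.05 in limma, and at an unadjusted p below 0.05 there were 4 higher and 1 lower of the 31, a share near the 14.8% of all tested loci. The median log2 change of the 31 was 0.06. Of the 8 related ligands, receptors and binding proteins, Insr and Igfbpl1 were tested. Igfbpl1, a secreted IGFBP-like protein of developing neurons, had 0.509, 0.414 and 0.741 in WT and 1.004, 0.967 and 1.31 under the KO label (log2 change 0.89, adjusted p = 0.201 from limma). It reached the FPKM minimum only through the higher group. Ins1 was listed at 0, and Ins2, Insrr, Igfbp1 and Igfals were at most 0.203 in any library. H19, the imprinted noncoding neighbour of Igf2, was at 0.409 to 0.989 in WT and at 0.534 to 0.911 under the KO label, with overlapping ranges.

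Igf2bp3 binds Igf2 mRNA and is known from fetal tissues. It had an FPKM of 2.38, 1.97 and 1.93 in WT and of 2.94, 3.22 and 3.03 under the KO label, again with no overlap (log2 change 0.53, standard error 0.12, adjusted p = 0.104 from limma). Its paralogs Igf2bp1 and Igf2bp2 were below 0.4 FPKM in all libraries. Among the proteases of binding proteins and their inhibitors, 4 of 6 genes were tested and none was below an unadjusted p of 0.05. Htra1, a secreted protease that cleaves IGFBPs, was the most abundant at 89.9 to 103 in WT and 93.7 to 97.1 under the KO label. Pappa, the gene of PAPP-A, was at 0.130 to 0.243 FPKM, and its inhibitors Stc1 and Stc2 were at 3.18 to 4.002 and 4.69 to 5.85.

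Of the 13 adaptors and brakes of the receptors, 12 were tested, and 1 of them was below an unadjusted p of 0.05 in limma. This was Ptpn1, the phosphatase that dephosphorylates the insulin and IGF1 receptors, with 13.7, 14.5 and 14.4 in WT and 16.1, 16.0 and 15.6 under the KO label (log2 change 0.16, adjusted p = 0.225 from limma). Grb2, the adaptor to Ras, was the most abundant at 38.3 to 44.5. Irs1, the docking protein of both receptors, was at 4.42 to 4.70 in WT and 4.10 to 4.27 under the KO label (adjusted p = 0.499 from limma). Of the 13 kinases and targets, 12 were tested. Foxo1, a transcription factor that Akt keeps out of the nucleus, had 12.2, 11.6 and 11.3 in WT and 10.9, 9.94 and 10.6 under the KO label (log2 change -0.15, adjusted p = 0.311 from limma). Akt1, a kinase that acts downstream of PI3K, was the most abundant of the group, at 51.6 to 54.4 in WT and 53.0 to 56.8 under the KO label, with overlapping ranges.

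**Figure D5:**
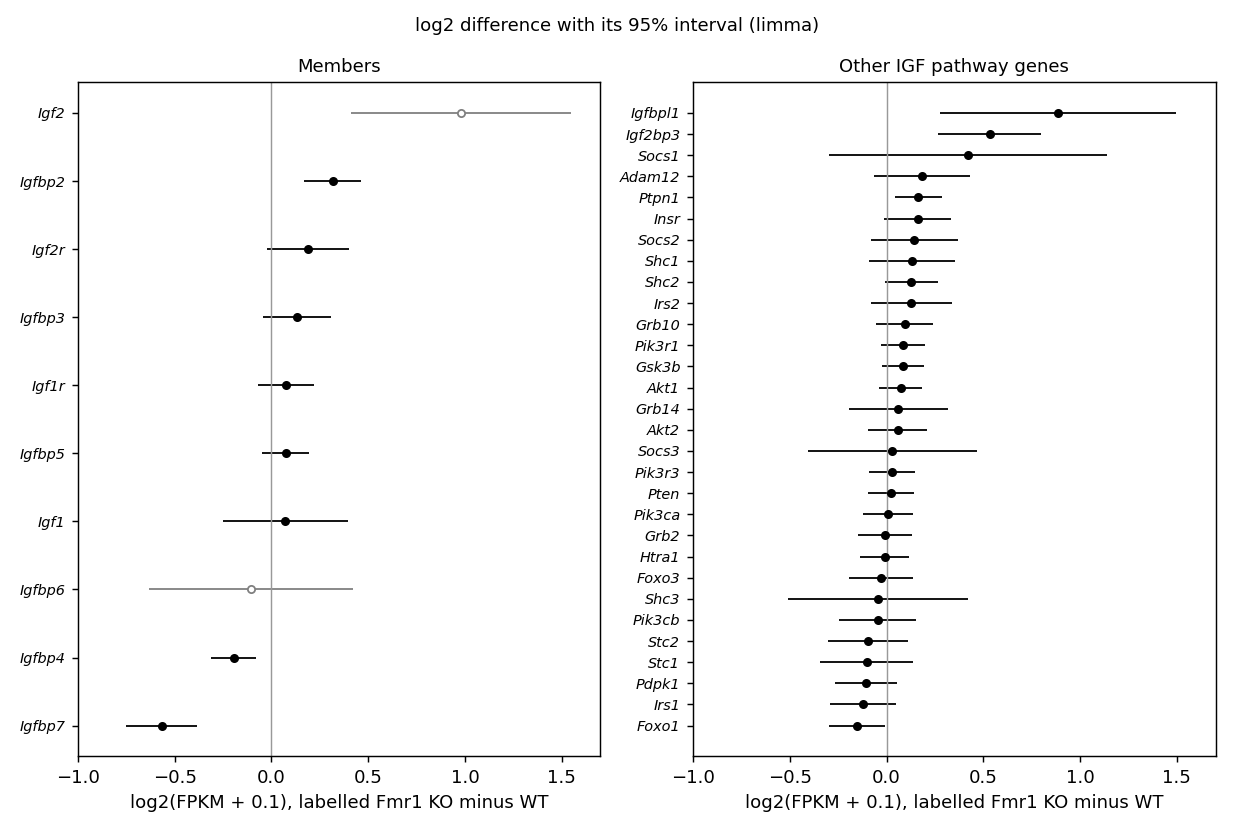
Difference in log2(FPKM + 0.1), KO label minus WT, with its 95% interval from limma, for the 10 members (left) and for other pathway genes that were tested (right). Open symbols mark Igf2 and Igfbp6, taken from the fit without an FPKM minimum. The interval of Igfbp7 runs from -0.75 to -0.38, and most pathway genes lie within 0.2 of 0.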

How the data were processed

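RNA-seq was done by the authors on total RNA from 3 WT and 3 *Fmr1* KO hippocampal cultures. Groups and replicate numbers come from the sample titles. The submitters' processing notes name GRCm38, TopHat2, Cufflinks and Cuffdiff. Versions, annotation, use of strand and library scaling were not stated. The deposited table holds FPKM per library, and also group FPKM, a fold change, a p-value and a q-value, which were not used. Where a symbol had several loci, that with the highest mean FPKM was taken. Deposited starts count from 0 and were raised by 1.

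Loci that averaged 1 FPKM or more in WT or under the KO label were tested on log2(FPKM + 0.1) with limma 3.58.1 (R 4.3.3), with a mean-variance trend, genotype as the only term and Benjamini-Hochberg adjustment. Tests were two-sided. The procedure was tested on simulated data. FPKM are not counts and give no depth, so no counting interval is given. Members and lists were chosen with earlier results of these data known. Named are all members, *Fmr1*, pathway genes below an unadjusted p of 0.05, the most abundant gene of each pathway group, and markers beside a member; Irs1, Pappa, Stc1, Stc2, H19, Col1a2, Dcn, Clic6, Pecam1, Pdgfra, Olig2 and other single low genes were chosen after their values were seen. The fit without an FPKM minimum for Igf2 and Igfbp6, under the block and with libraries left out, was added after seeing the data. The values of some list genes are not reported here. Alternatives were other pseudocounts and FPKM minimums, centring, no trend, the replicate block and each library left out.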

Additional observations from a re-analysis of the deposited data

How the results depend on the processing

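Of the log2 changes of the 10 members, the direction was the same under every alternative run, except that of Igfbp6, which ran from -0.22 to 0.000624 with a library left out and was 0.000624 without *Fmr1*-KO replicate 3. The single member called, Igfbp7, was not called without an FPKM minimum or without the trend, nor with any one library left out (0 members in each, by limma). At an unadjusted p below 0.05, the members higher under the KO label were 1 in the main comparison, 2 without an FPKM minimum, and 1 to 3 with a library left out (3 without WT replicate 2); Igf2 is tested only without the minimum. The loci called over the whole table were 12 higher and 23 lower, 6 and 9 without a minimum, 7 and 14 without the trend, and 4 to 8 and 10 to 14 with a library left out; with a minimum of 5, 20 were higher. In the pathway list, those higher at an unadjusted p below 0.05 were 4, and 2 with a minimum of 5 and 4 to 7 with a library left out (7 without WT replicate 1), and those lower were 1, and 0 to 1. The cause was not tested.

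With the replicate number as a block, 29 loci were higher and 36 lower, 2 members were higher at an unadjusted p below 0.05, and the adjusted p of Igfbp2 was 0.0502; the block changed no call of a member. The numbers were not shown to pair the samples: deviations of same-numbered libraries correlated at r = 0.243, 0.0577 and 0.0801, and WT replicate 2 correlated best with *Fmr1*-KO replicate 3. The 3 libraries per genotype and an unknown depth limit what can be seen, most of all for Igf2 and Igfbp6.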

Other observations

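The members' neighbours on the chromosome were looked up in RefSeq (GRCm38.p6). Igfbp2 and Igfbp5 lie next to each other on chromosome 1, with 5590 bases between them. Igfbp2 had a log2 change of 0.32, and Igfbp5 of 0.07. Igfbp3 lies 3539 bases from Igfbp1, which was at 0 to 0.119 FPKM. Igf2 lies 11839 bases from Ins2, which was listed at 0 in 5 of 6 libraries. The RefSeq gene of Igfbp4, counted from its first base, lies 15805 bases from Top2a, a gene of dividing cells. Top2a was at 13.9 to 16.7 FPKM in WT and 16.9 to 19.5 under the KO label, in the direction opposite to Igfbp4. The interval of Igfbp7 in the deposited table also holds Polr2b, which was at 20.4 to 21.9 in WT and 20.5 to 21.7 under the KO label.

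By Pearson's r of log2(FPKM + 0.1) over the 6 libraries, the tested loci most like Igfbp7 were Rreb1 (0.993), Fhl2 (0.988) and Mmp17 (0.985). Those most like Igfbp2 were Srrt (0.993), Chic2 (0.992) and Mfn1 (0.990), and those most like Igfbp4 were Commd6 (0.993), Mt1 (0.991) and Phf13 (0.989). For Igf1, the locus most like it was *Fmr1* itself (0.986). With 6 libraries and 13195 loci, such values are a description and say nothing of shared control.

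Other cell type lists are given as values. Of 7 tested oligodendrocyte lineage genes, 2 were higher at an unadjusted p below 0.05, Pdgfra and Olig2, and none passed adjustment in limma. Of 6 proliferation genes, 3 were higher at an unadjusted p below 0.05 and none passed. Over all tested loci, 14.8% were below that unadjusted p, in either direction. The excitatory list summed to 839 to 941 FPKM over the 6 libraries and the inhibitory list to 309 to 356, and neither had a gene that passed.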
